A study of Rattus norvegicus with 6 samples.

Results

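Intercalated cells are the acid-base cells of the connecting tubule and collecting duct, and 10 genes of their proton, bicarbonate and ammonia transport were followed here in the renal cortex of rats given tricresyl phosphate. The members were fixed by name, as genes of intercalated cells, and measured by every non-control probe whose accession maps to one of them. Of the 10 genes, 9 were measured, by 16 of the 61537 non-control probes, and all 9 were among the 31637 genes tested. The remaining gene, Atp6v0a4, which encodes the kidney form of a membrane subunit of the proton pump, had no probe matched by accession and is not analysed here.

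The study compared 3 male Sprague-Dawley (Crl:CD(SD)) rats given tricresyl phosphate, a triaryl phosphate found in plastics and hydraulic fluids, at 200 mg/kg/day for 4 weeks with 3 male rats of the same strain given corn oil for 4 weeks. The animals were bought at 5 weeks of age, were kept on the same basal diet, and each gave 1 array of renal cortex RNA. The comparison asks what tricresyl phosphate changes in cortical RNA. Slide 1, read in scan 1, carried corn oil replicate 1 only, and slide 2, read in scan 2, carried the 5 remaining animals. Slide and scan therefore cannot be told apart from corn oil replicate 1.

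Type A intercalated cells secrete acid into the urine through a vacuolar proton pump in the apical membrane and return bicarbonate to the blood through the anion exchanger Slc4a1. Type B cells work the other way round, and secrete bicarbonate through pendrin, the product of Slc26a4. Both use carbonic anhydrase to make protons and bicarbonate, the Rh glycoproteins Rhbg and Rhcg carry ammonia across the cell, and in mice the forkhead transcription factor Foxi1 is needed for these cells to form. They are a minority of the cells of the cortex, so in whole-cortex RNA fewer intercalated cells and less RNA per cell cannot be told apart.

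The promoters of Atp6v1b1 and Rhbg are shown because tricresyl phosphate and corn oil animals did not overlap for these genes, and that of Slc4a9 because it had the largest difference of the 9. The sequences are from RefSeq on build GRCr8, 5′ to 3′, and stop before the annotated start of the gene. Capitals mark the forkhead core letters TGTTTA or TATTTA on either strand.
Atp6v1b1, chr4:117781194-117781443, plus strand: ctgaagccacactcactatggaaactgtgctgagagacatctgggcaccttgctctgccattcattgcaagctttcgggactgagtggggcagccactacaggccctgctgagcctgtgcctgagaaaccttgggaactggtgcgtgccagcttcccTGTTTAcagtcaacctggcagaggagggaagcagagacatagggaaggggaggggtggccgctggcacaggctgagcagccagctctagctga
Rhbg, chr2:176015202-176015399, minus strand: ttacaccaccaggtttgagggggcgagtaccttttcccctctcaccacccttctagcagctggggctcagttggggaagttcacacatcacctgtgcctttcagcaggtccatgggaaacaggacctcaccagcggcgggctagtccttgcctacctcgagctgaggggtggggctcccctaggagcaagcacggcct
Slc4a9, chr18:28402543-28402792, plus strand: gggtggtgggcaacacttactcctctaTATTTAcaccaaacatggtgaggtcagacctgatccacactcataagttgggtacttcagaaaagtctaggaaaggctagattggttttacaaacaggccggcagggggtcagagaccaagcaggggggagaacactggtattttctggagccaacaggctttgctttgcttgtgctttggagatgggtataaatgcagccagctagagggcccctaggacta

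For Rhbg only the 198 bases outside the annotated span of the gene are printed, while the search covered all 250 bases before the start in the promoter table for every gene. In these 250 bases, either set of letters was present in 2 of the 8 member promoters that the table holds, or 25.0%, and in 22.6% of all 33469 promoters. The share among the members was thus near that of all promoters. TGTTTA was present in 12.1% and TATTTA in 13.4% of all promoters, each counted whether or not the other was present. The match of Atp6v1b1 began 93 bases and that of Slc4a9 223 bases before the gene start, and neither set overlapped the other in the members. A match describes the letters only. The table has promoters for 8 of the 10 genes. It has none for Slc4a1 and Car2.

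All 16 probes were well above background on all 6 arrays, so the transcripts that mark intercalated cells were measured in every animal and no member depended on the filter on dim probes. No member passed the test in either direction. Levels are given on a log2 scale as the processed signal of the spot relative to the array's own 75th percentile, so that 0 is that percentile and 1 unit is a factor of 2 in signal. Differences are tricresyl phosphate minus corn oil. Each gene is represented by its brightest probe, and the other probes of a member are given beside it.

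Of the 9 genes, 6 had a difference above 0 and 3 below 0, where 40.8% of all genes tested were above 0. The median difference of the 9 was 0.16, and that of all 31637 genes was −0.038. At a limma adjusted p under 0.05, 0 of the 9 members were called, and 0% of all genes were. At an unadjusted limma p under 0.05, 0 members were called, against 5.49% of all genes, of which 1.63% were higher and 3.86% lower. The median of the members rested on single animals: it was −0.054 without corn oil replicate 2 and 0.0025 without tricresyl phosphate replicate 1.

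The tricresyl phosphate and corn oil animals did not overlap in 2 of the 9 members, Atp6v1b1 and Rhbg, both higher with tricresyl phosphate. That is 22.2% of the members, against 3.84% of all genes that were higher without overlap and 11.8% that did not overlap in either direction. Both gaps were narrow. The lowest tricresyl phosphate animal stood 0.034 above the highest corn oil animal for Atp6v1b1, and 0.074 above it for Rhbg.

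**Figure D1:**
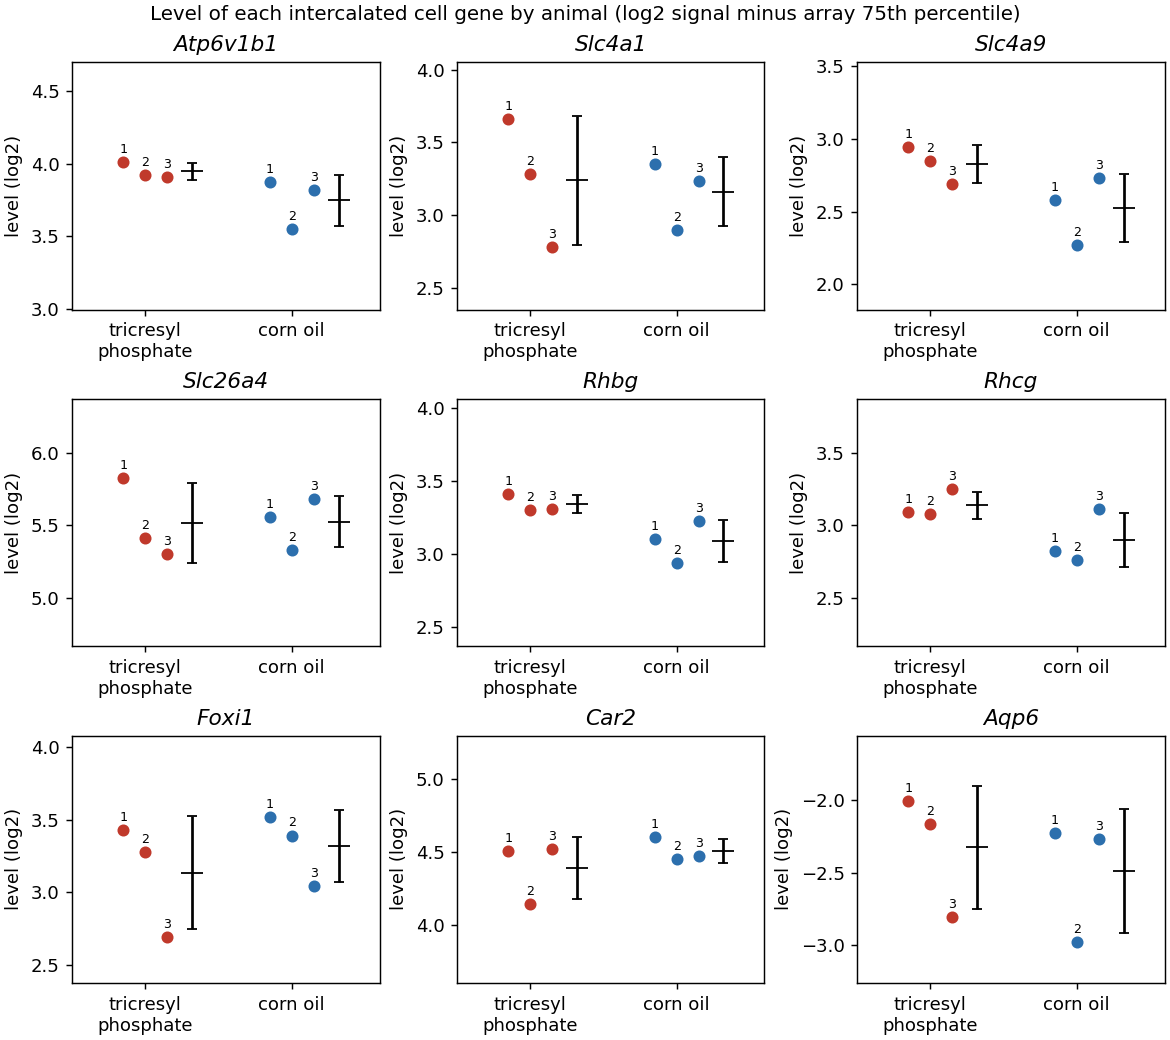
Level of each of the 9 measured genes by animal, as log2 processed signal minus the 75th percentile of the array on the vertical axis, with tricresyl phosphate animals in red and corn oil animals in blue, replicate digits above the points, and bars for mean ± SD (n = 3). Every panel spans the same range of log2 units. Points of the groups are separate for Atp6v1b1 and Rhbg, and corn oil replicate 2 is the lowest animal in 5 of the 9 panels.

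Of the proton pump, Atp6v1b1 encodes the B subunit of the catalytic sector that is typical of intercalated cells. Its levels were 4.01, 3.92 and 3.91 in tricresyl phosphate replicates 1 to 3, and 3.87, 3.55 and 3.82 in corn oil replicates 1 to 3. The tricresyl phosphate animals lay close together and above all corn oil animals, of which replicate 2 was the lowest. The difference was 0.20 ± 0.11 (SE), a fold of 1.15, with a 95% interval from −0.077 to 0.48 and an adjusted limma p of 0.811. The other probe gave 0.22, 0.24 and 0.36 in tricresyl phosphate animals and −0.12, −0.27 and 0.19 in corn oil animals, a difference of 0.34, again without overlap.

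The paralogs and partners of this subunit, which are made in many cell types, stand beside it. Atp6v1b2, the B subunit found throughout the body, gave a difference of 0.018 ± 0.099 (SE) and, on a second probe, of 0.21. Atp6v0a1, a widely expressed paralog of Atp6v0a4, differed by 0.041 ± 0.081 (SE), with 3 probes from 0.041 to 0.10. Of 17 subunits and accessory proteins of the pump other than the members, Atp6v1b2 and Atp6v0a1 included, 6 were higher and 11 lower, 0 passed, and the median was −0.030. The smallest p-values of this list belonged to Atp6v1a, the catalytic A subunit, at −0.26 ± 0.15 (SE) with 3 probes from −0.26 to 0.095, and to Atp6v0d1, a subunit of the membrane sector, at 0.13 ± 0.097 (SE). Whether Atp6v1b1 differed from these subunits was not tested.

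Among the anion exchangers, Slc4a1 encodes the basolateral chloride-bicarbonate exchanger of type A cells and is also the anion exchanger of red cells. Its levels were 3.66, 3.28 and 2.78 in tricresyl phosphate replicates 1 to 3, and 3.35, 2.90 and 3.24 in corn oil replicates 1 to 3. The highest and the lowest of the 6 animals were both treated with tricresyl phosphate. The difference was 0.079 ± 0.25 (SE), with a 95% interval from −0.52 to 0.68 and an adjusted limma p of 0.954, and it was −0.13 without tricresyl phosphate replicate 1 and −0.054 without corn oil replicate 2. The other probe differed by 0.25, with overlapping groups.

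Slc26a4 encodes pendrin, the apical exchanger of type B cells. Its levels were 5.83, 5.42 and 5.30 in tricresyl phosphate animals, and 5.56, 5.33 and 5.68 in corn oil animals. Tricresyl phosphate replicate 1 was again the highest and replicate 3 the lowest. The difference was −0.0093 ± 0.17 (SE), with a 95% interval from −0.42 to 0.40 and an adjusted limma p of 0.993, and it was above 0 after cyclic loess, normexp or quantile scaling and when corn oil replicate 1 or 3 or tricresyl phosphate replicate 2 or 3 was left out, at up to 0.097. The other probe differed by 0.20.

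Slc4a9 encodes a basolateral bicarbonate transporter that marks type B cells in mice. Its levels were 2.95, 2.85 and 2.69 in tricresyl phosphate animals, and 2.58, 2.27 and 2.73 in corn oil animals. The groups overlapped through corn oil replicate 3, which lay just above tricresyl phosphate replicate 3. The difference of 0.30 ± 0.15 (SE), a fold of 1.23, was the largest of the 9 in size, with a 95% interval from −0.052 to 0.66 and an adjusted limma p of 0.811. The other probe differed by 0.15, and on it tricresyl phosphate replicate 2, at 2.35, was second lowest after corn oil replicate 2, at 2.23.

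Of the ammonia channels, Rhbg encodes the basolateral ammonia channel of intercalated and neighbouring distal cells. Its levels were 3.41, 3.30 and 3.31 in tricresyl phosphate animals, and 3.10, 2.94 and 3.23 in corn oil animals. All 3 tricresyl phosphate animals lay above all 3 corn oil animals. The difference was 0.25 ± 0.10 (SE), a fold of 1.19, with a 95% interval from −0.0020 to 0.51 and an adjusted limma p of 0.811.

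Rhcg encodes an ammonia channel that is found in the apical membrane, though not shown here to be only there. Its levels were 3.09, 3.08 and 3.25 in tricresyl phosphate animals, and 2.83, 2.76 and 3.11 in corn oil animals. The groups overlapped by corn oil replicate 3 alone, which exceeded tricresyl phosphate replicates 1 and 2. The difference was 0.24 ± 0.12 (SE), with a 95% interval from −0.062 to 0.54 and an adjusted limma p of 0.811. Each of these channels has 1 probe.

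Foxi1, the transcription factor, was at 3.43, 3.28 and 2.70 in tricresyl phosphate animals, and at 3.52, 3.39 and 3.04 in corn oil animals. Replicate 3 was the lowest animal of each group. The difference was −0.18 ± 0.23 (SE), with a 95% interval from −0.73 to 0.37 and an adjusted limma p of 0.875, and it was 0.037 without tricresyl phosphate replicate 3. The other probes differed by 0.14 and 0.080, so the 3 probes did not share a sign, and tricresyl phosphate replicate 3 was the lowest animal on all 3.

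Car2 encodes the cytosolic carbonic anhydrase, which red cells and other tubule cells also hold. Its levels were 4.51, 4.14 and 4.52 in tricresyl phosphate animals, and 4.60, 4.45 and 4.47 in corn oil animals. Tricresyl phosphate replicate 2 stood apart below the other 5 animals. The difference was −0.12 ± 0.13 (SE), with a 95% interval from −0.44 to 0.20 and an adjusted limma p of 0.861, and it was 0.0044 without that animal.

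Aqp6 encodes a channel of intracellular vesicles of type A cells in the rat. Its levels were −2.01, −2.17 and −2.81 in tricresyl phosphate animals, and −2.23, −2.98 and −2.27 in corn oil animals. One animal of each group lay well below the others, tricresyl phosphate replicate 3 and corn oil replicate 2. The difference was 0.16 ± 0.29 (SE), with a 95% interval from −0.54 to 0.87 and an adjusted limma p of 0.916, and it was −0.082 without corn oil replicate 2. The other probe differed by 0.22.

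**Figure D2:**
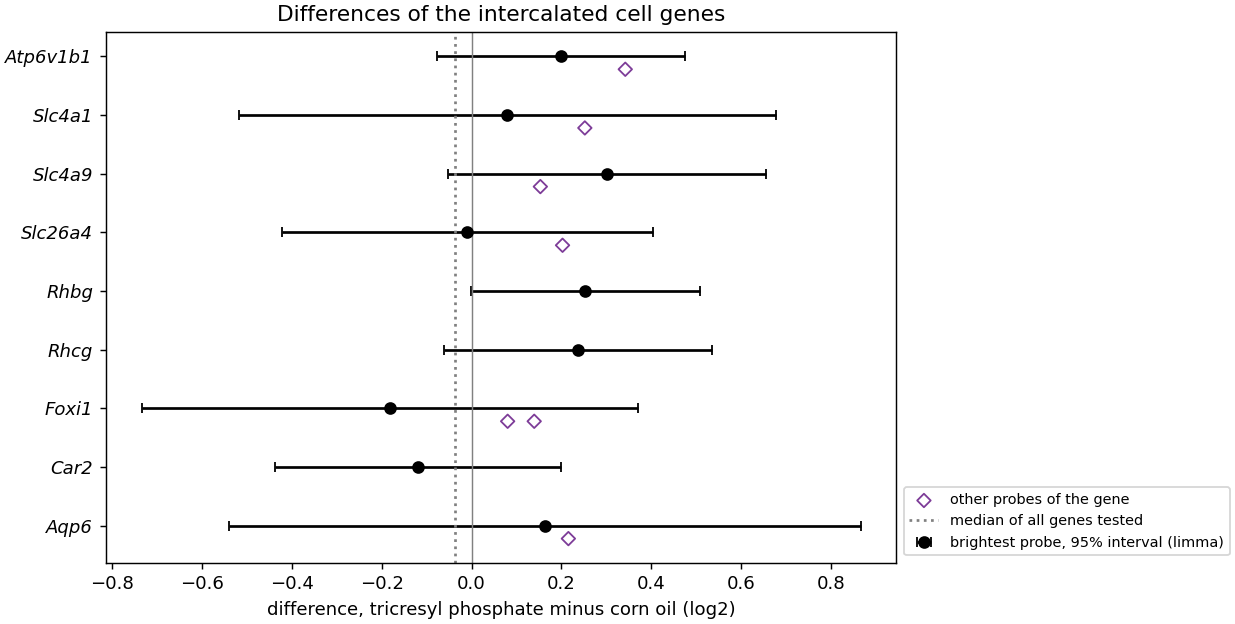
Difference of each gene, tricresyl phosphate minus corn oil, on the log2 scale, with filled points and 95% limma intervals for the brightest probe and open diamonds for the other probes, and a dotted line at the median of all genes tested, −0.038. All 9 intervals include 0, and that of Rhbg, from −0.0020 to 0.51, only just does.

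The balance of type B and type A markers was followed within each animal, as the mean of Slc26a4 and Slc4a9 minus the mean of Slc4a1 and Aqp6. Slc4a9 was counted with type B from its place in mice, and its cell type in these rats was not tested. The absolute size of the balance depends on the probes, so only its variation between animals has a meaning. It was 3.56, 3.57 and 4.01 in tricresyl phosphate animals, and 3.50, 3.84 and 3.72 in corn oil animals. The groups overlapped widely. The difference was 0.025, with an exact two-sided permutation p of 0.8 (n = 3 each), where 3 against 3 animals cannot go below 0.1. Its sign turned with the mean of the probes of a gene and without tricresyl phosphate replicate 3 (−0.12) or corn oil replicate 1 (−0.067). The slide as a block gives the same fit as leaving out corn oil replicate 1, the only animal of its slide.

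The same animals were high or low for many members. Tricresyl phosphate replicate 1 was the highest animal on 11 of the 16 probes, and corn oil replicate 2 the lowest on 10. A further 5 probes, those of Foxi1 and the brightest probes of Slc4a1 and Slc26a4, were lowest in tricresyl phosphate replicate 3. The mean of the 9 genes, each centred on its mean over the 6 arrays, was 0.24, 0.039 and −0.12 in tricresyl phosphate animals and 0.049, −0.24 and 0.035 in corn oil animals. The groups overlapped.

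Slc4a1, Slc26a4, Aqp6, Atp6v1b1, Slc4a9 and Rhbg followed the mean of the other 8 members over the 6 arrays with Pearson r from 0.65 to 0.92, highest for Aqp6. Rhcg, Foxi1 and Car2 did so with r of 0.18, 0.13 and −0.10. These values share the same arrays and their scaling and are a description. Outside the members, the 5 named genes most like their mean over the 6 arrays, among 12403 searched, were Ntm (r = 0.983), Bace1 (r = 0.980), Spatc1 (r = 0.979), Klk1c9 (r = 0.973) and Ppm1g (r = 0.973). The top of so large a search over 6 arrays has a high r by selection, and a link to the members was not tested. Ntm and Bace1 were dim, at mean levels of −3.10 and −4.25 in tricresyl phosphate animals and −3.17 and −4.40 in corn oil animals. Klk1c9, a kallikrein gene, had the widest range of these 5, with 1.71 in tricresyl phosphate replicate 1 and −0.30 in corn oil replicate 2.

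**Figure D3:**
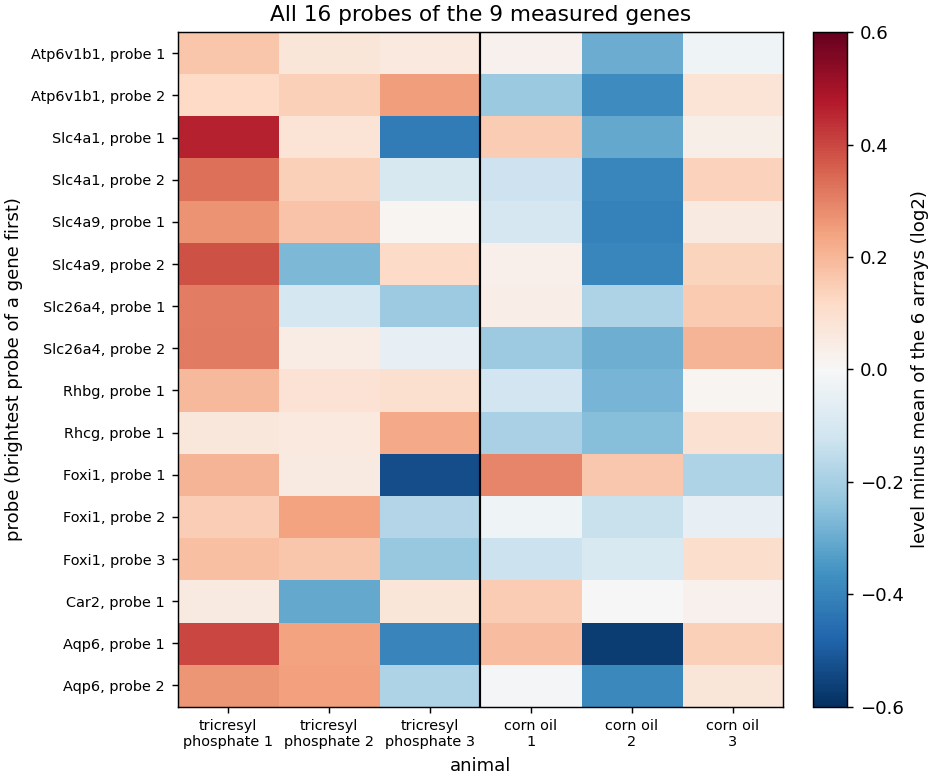
Level of each of the 16 probes (rows) in each animal (columns) minus the mean of the probe over the 6 arrays, in log2 units, with red above and blue below the mean. Corn oil replicate 2 is the lowest animal on 10 probes and tricresyl phosphate replicate 1 the highest on 11.

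Of 18 further markers of intercalated cells 13 were higher and 5 lower with tricresyl phosphate, with a median of 0.11, and 0 passed. The groups did not overlap in 2 of the 18, both higher, where 3.84% of all genes were higher without overlap and 11.8% did not overlap in either direction. P2ry14, a receptor for UDP-glucose, was at −1.84, −1.78 and −1.58 in tricresyl phosphate animals and at −1.96, −2.41 and −2.02 in corn oil animals, and differed by 0.40 ± 0.15 (SE). Hepacam2, a membrane protein that marks these cells in mice, was at 0.78, 0.80 and 0.62 in tricresyl phosphate animals and at 0.50, 0.15 and 0.57 in corn oil animals, and differed by 0.33 ± 0.14 (SE; second probe 0.36). Both had an adjusted limma p of 0.811. As a mean over the list, the tricresyl phosphate animals lay between 0.024 and 0.105 and the corn oil animals between −0.135 and −0.011. The summed level of the same list, in which the brightest genes weigh most, overlapped between the groups. On the log2 scale it was 7.10 to 7.37 in tricresyl phosphate animals and 7.12 to 7.34 in corn oil animals, lowest in tricresyl phosphate replicate 3.

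Of 22 acid-base genes of other segments 9 were higher and 13 lower, 0 passed, and the median was −0.050. Slc38a3, a glutamine transporter of the proximal tubule, differed by −0.65 ± 0.36 (SE), with an adjusted limma p of 0.811.

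Principal cells are the neighbours of intercalated cells in the collecting duct. Of 13 principal cell markers 12 were higher and 1 lower with tricresyl phosphate, 0 passed, and the median was 0.12. The groups did not overlap in 2 of the 13, both higher, against 3.84% of all genes higher without overlap. Aqp4, which was 1 of these 2, and Gata3, whose groups overlapped, had the smallest p-values of the list. They differed by 0.45 ± 0.14 (SE) with 4 probes from 0.051 to 0.71 and by 0.25 ± 0.12 (SE; second probe 0.32). Aqp2 was at −0.043 ± 0.18 (SE; second probe 0.087). The mean of this list was 0.036 to 0.12 in tricresyl phosphate animals and −0.20 to 0.058 in corn oil animals, lowest in corn oil replicate 2. The mean of the 9 members minus the mean of this list was 0.18, 0.0031 and −0.24 in tricresyl phosphate animals and 0.12, −0.035 and −0.023 in corn oil animals. The groups overlapped in this quantity, which was chosen after the values were seen and was not tested.

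Of 8 genes listed as markers of the distal convoluted and connecting tubule, 6 were tested. Whether each is particular to these segments was not tested. Of the 6 genes, 5 were higher and 1 lower. Their mean was lowest in corn oil replicate 2, at −0.30, with the other 5 animals from −0.0015 to 0.18. In 1 of the 6, Trpv5, the tricresyl phosphate animals were higher without overlap, as in 3.84% of all genes. The smallest p-values of that list belonged to Trpv5, at 0.34 ± 0.20 (SE; second probe 0.12), and Trpm7, at −0.066 ± 0.096 (SE; second probe 0.13). Proximal tubule markers, 4 higher and 6 lower, had their highest mean in corn oil replicate 2, at 0.094. Hepatocyte markers, 5 higher and 5 lower, were highest in corn oil replicate 2 and tricresyl phosphate replicate 3, with list means of 1.54 and 0.97, and lay between −1.41 and −0.061 in the other 4 animals. These are the 2 animals with the lowest means of the 9 members. Without both, 8 of the 9 members were higher, the median difference was 0.12 and 0 passed. The part of other cells in the members' levels was not tested.

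Red cells hold the products of Slc4a1 and Car2. Of 11 erythroid markers 2 were higher and 9 lower with tricresyl phosphate, 0 passed, and the median was −0.27. The groups did not overlap in 4 of them, all lower, against 7.94% of all genes. Hbb, a beta globin, was at 7.40, 7.09 and 7.06 in tricresyl phosphate animals and at 7.63, 7.48 and 7.46 in corn oil animals, and its 2 probes differed by −0.34 and −0.33. The difference was −0.34 ± 0.10 (SE) for Alas2, which starts haem synthesis in erythroid cells, and −0.31 ± 0.086 (SE) for Epb42, part of the red cell membrane skeleton. Epb42 was dim, at mean levels of −4.85 with tricresyl phosphate and −4.54 with corn oil, and had 1 probe. The summed level of the list was 9.36 to 9.70 in tricresyl phosphate animals and 9.68 to 9.85 in corn oil animals on the log2 scale. Its part in the levels of Slc4a1 and Car2 was not tested.

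Thick ascending limb markers, 4 higher and 4 lower, and inner medulla markers, 5 higher and 3 lower, had medians of −0.033 and 0.019. Cldn19 of the first list differed by −0.33 ± 0.27 (SE) with 3 probes from −0.36 to −0.27, and Ptger3 by 0.19 ± 0.14 (SE) with 3 probes from 0.090 to 0.19. Slc6a12 of the second differed by −0.24 ± 0.079 (SE; second probe −0.037), and Fxyd2 by −0.12 ± 0.097 (SE; second probe −0.12). Lrp2 of the proximal tubule differed by −0.13 ± 0.091 (SE; second probe −0.086), and Slc5a2 by −0.13 ± 0.10 (SE) with 3 probes from −0.13 to −0.038. Tf of the hepatocyte list differed by −0.60 ± 0.19 (SE; second probe −0.55), and Ttr by 1.48 ± 1.46 (SE; second probe 0.84). None of these passed. Fxyd2 was bright in this cortex RNA, at mean levels of 7.31 with tricresyl phosphate and 7.43 with corn oil. It is thus not particular to the inner medulla.

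**Figure D4:**
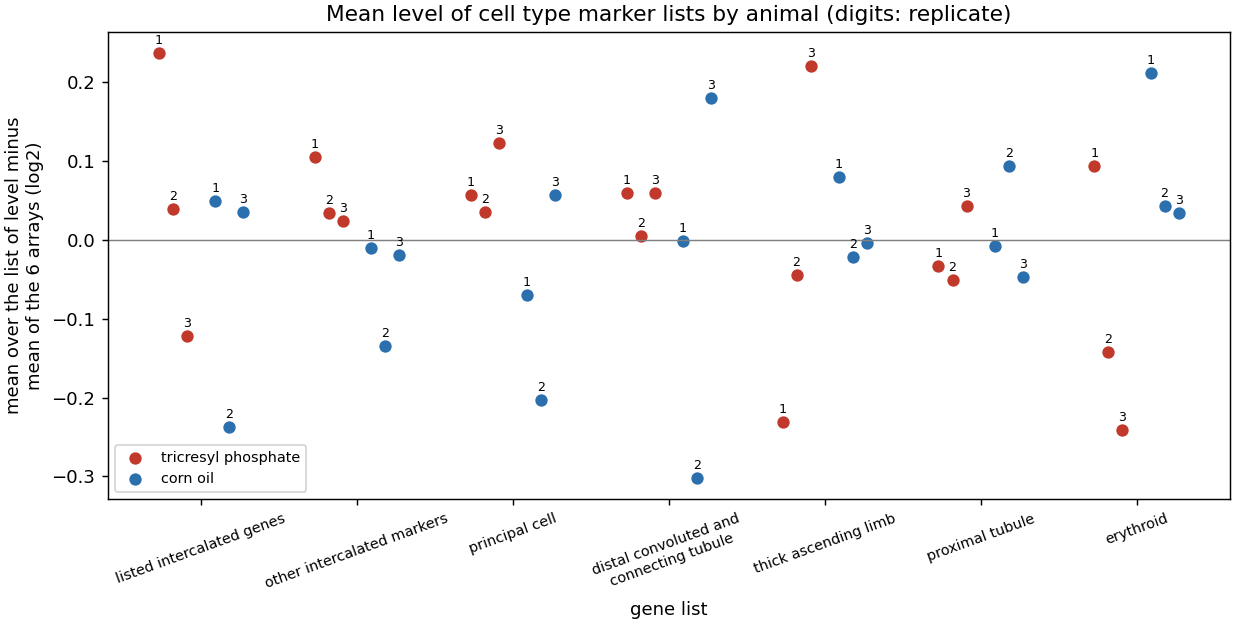
Mean over each marker list of the level minus its mean over the 6 arrays, in log2 units, for the tricresyl phosphate animals (red, left in each pair) and the corn oil animals (blue, right), with replicate digits. The 9 listed intercalated genes overlap between the groups, from −0.12 to 0.24 with tricresyl phosphate and from −0.24 to 0.049 with corn oil, and corn oil replicate 2 is the lowest animal in the 4 lists of the distal nephron and collecting duct at the left.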

How the data were processed

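RNA of the renal cortex was labelled with Cy3 and hybridised to 1-colour Agilent arrays, per the labels' protocols. The deposited intensity values are the processed signals of Agilent Feature Extraction (10.7.1.1 per the file headers, 10.7 per the submitters' processing notes). They were corrected for background within the array, with no scaling between arrays. Median processed signals ranged from 102.6 to 133.2 over median backgrounds of 33.0 to 41.0. The number of arrays limits the precision. The authors' value table holds the same intensity divided by 1 number per array (coefficient of variation of the ratio at most 0.0114% over probes with a mean signal above 500). It is therefore linear and uncentred, with column medians from 0.1094 to 0.1151, and its scaling software is not given in the sources used.

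Processed signals were scaled to the 75th percentile of the array and taken to log2. Control spots (1439) and 77 outlier spots were left out. Probes were kept if well above background on at least 3 of 6 arrays (43099 kept, 18438 removed) and named by accession, without version, from RefSeq genes of GRCr8 (28206 with 1 symbol, 0 with several, 33331 with none). The arrays were designed on rn4, so no coordinates of probes are given. Each gene took its brightest kept probe. The treatments were compared on R 4.3.3 by limma 3.58.1 (lmFit, then eBayes), with two-sided p-values adjusted by Benjamini-Hochberg over all 31637 genes and a threshold of 0.05; the fit was tested on simulated data. Named were all members, the 2 genes with the smallest p of each other list, the paralogs Atp6v1b2 and Atp6v0a1, Aqp2, Hbb and Alas2, and the 5 genes most like the members; 1 gene that this rule names is not reported here. Members and lists were chosen with earlier results of these data known. The alternatives were other normalizations (quantile, cyclic loess, normexp with an offset of 50 then quantile), the value table, other filters, probe rules and variance models, a block for slide or for replicate number, and fits without single animals. Normexp used the median spot signal. Same-numbered animals did not deviate together (r from −0.051 to 0.087), so the numbers were not taken to pair them.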

Additional observations from a re-analysis of the deposited data

How the results depend on the processing

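No member was called under any of the 18 alternatives run, with the lowest adjusted limma p at 0.693, without corn oil replicate 3. With quantile, cyclic loess or normexp normalization, or a trend and robust variance, 2 members reached an unadjusted p under 0.05, as did 3 without corn oil replicate 3 and 1 with probes well above background on all 6 arrays. Over all genes, normexp and quantile normalization called 2, the trend and robust variance 2, and leaving out 1 animal 0 to 1, where the comparison of all 6 animals called 0. The replicate number as a block called 0 members. Each number holds 1 animal of each group, so this block cannot change a difference, and the median stayed at 0.16. Differences of Atp6v1b1, Slc4a9, Rhbg and Rhcg were above 0 under all 18 alternatives. Several of these could not move them. The other filters, the outlier flags, the variance model and the replicate block left these differences unchanged. The slide block is the same fit as leaving out corn oil replicate 1.

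The median difference of the members ranged from −0.054 to 0.24 when 1 animal was left out. The type B minus type A difference ranged from −0.12 to 0.103 in the same way, and was −0.015 with the mean of the probes, −0.067 with the slide block and −0.045 without both animals highest in hepatocyte markers, an alternative chosen after seeing the data. The difference of Slc26a4 was 0.089 with quantile, 0.085 with cyclic loess and 0.092 with normexp normalization, 0.097 with the mean of the probes, 0.0081 with the slide block and 0.0020 without those 2 animals, and that of Foxi1 was 0.012 with the mean of the probes and 0.073 without them. Leaving out 1 animal moved Slc26a4 from −0.17 to 0.097, Slc4a1 from −0.13 to 0.31, Foxi1 from −0.33 to 0.037, Car2 from −0.19 to 0.0044 and Aqp6 from −0.082 to 0.40. The causes of these turns were not tested.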
